A study of Homo sapiens with 4 samples.

Results

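This account concerns 34 genes in 1 human cell line: mesenchymal genes that the fusion protein EWSR1-FLI1 is known to repress, and genes of the actin cytoskeleton that depend on the transcription factors SRF and YAP. They were chosen by name and matched by symbol to the deposited Ensembl identifiers, and all 34 of 34 were found among 60617 gene entries. The cells were SKNMC, an established Ewing sarcoma line, kept for 24 h in CBL0137 at 1 µM (n = 2 libraries) or in its DMSO vehicle (n = 2 libraries). CBL0137, a curaxin, inserts into DNA and holds FACT, a histone chaperone, on chromatin. Both groups were this 1 line in the same medium, no label names an edited gene or a depletion of the fusion, and the comparison is of drug against vehicle only.

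In Ewing sarcoma the fusion of EWSR1 with the ETS factor FLI1 turns many genes on and holds others down. Among the genes it holds down are those of a mesenchymal, contractile programme, which cells with less fusion protein switch on with stress fibres and firmer adhesion. SRF, with its actin-sensing partners MRTFA and MRTFB, binds a DNA element called the CArG box in genes of actin and actin-binding proteins. YAP and TAZ (genes YAP1 and WWTR1) act through TEAD factors on genes such as CCN1 and CCN2.

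Reads assigned to genes numbered 19625517 to 21061892 per library, and whether those of a group were grown as separate cultures is not stated, so p-values measure only the spread between these libraries, which may be technical. Levels are given as counts scaled to library size (counts per megaread, CPM) over effective library sizes, that is, as shares of the sequenced RNA. In such bulk data fewer cells of a kind and less RNA per cell cannot be told apart. A gene was called when edgeR's quasi-likelihood test gave a Benjamini-Hochberg adjusted p under 0.05 and a fold above 1.5, the limits the study named. Transcripts of EWSR1 stood at 400.1 ± 0.190 CPM with DMSO and 353 ± 5.54 with CBL0137, and those of FLI1 at 69.9 ± 0.759 and 71.1 ± 2.18 (SD, n = 2), neither of them called. Such counts per gene do not separate the fusion transcript from other transcripts of either gene, so the level of the fusion was not measured. Of 7 Ewing sarcoma markers all were tested and 4 were called lower, and their summed level was 2178 to 2188 CPM with DMSO and 1155 to 1244 with CBL0137. Of 6 epithelial markers 5 were tested and all 5 called higher (summed 51.7 to 52.9 against 117 CPM). Most of that sum was KRT18, at 46.2 CPM with DMSO and 98.3 with CBL0137. Of 7 fibroblast markers 2 were called higher and 2 lower (963 to 970 against 1248 to 1254 CPM). Over all tested genes 18.2% were called higher and 15.1% lower. Of 5 smooth muscle markers 4 were tested and 2, LMOD1 and MYH11, were called higher by edgeR and 0 by DESeq2 (0 higher at an unadjusted p under 0.05 there; summed 25.4 to 26.5 against 21.2 to 23.9 CPM), with DES at 0.106 and 0.0683 CPM. Of 4 endothelial markers matched 2 were tested and 1, CDH5, was called higher by edgeR and 0 by DESeq2 (1 at an unadjusted p under 0.05 there; summed 2.42 to 2.80 against 4.14 to 4.79 CPM). Of 5 blood markers 2 were tested and 0 called by edgeR (0 by DESeq2 and 1 lower by limma). PTPRC was lower by less than the 1.5-fold limit (log2 fold change -0.49, SE 0.06, edgeR adjusted p = 1.4e-09). PTPRC stood at 162 and 115 CPM, while CD3E and CD68 had no read with DMSO. CD68, which overlaps annotated genes on both strands, was nevertheless listed at 0.754 and 0.718 FPKM in the DMSO libraries. The part of these marker changes in the results below was not tested.

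The 34 genes did not move as a block. Of them, 30 passed the filter on low counts and 4, CD44, PLAU, S100A6 and MYL9, did not. Of the 30, 4 rose with CBL0137 (13.3%), 7 fell (23.3%) and 19 were not called. Over all 17374 genes tested 33.4% were called, 18.2% higher and 15.1% lower, so the counts of the 30 are not far from the background in either direction. With no fold limit 9 of the 30 passed as higher and 12 as lower, where 61.7% of all tested genes passed. Their median log2 fold change was -0.09, beside 0.01 for all tested genes. THBS1, VCL, CNN1 and FOXO1 rose, and ACTA2, TGFBR2, TNFAIP6, CALD1, LOX, CCN1 and TPM4 fell. CPM values of the 2 groups did not overlap for 23 of the 30 genes, 11 with CBL0137 above and 12 below, where 79.9% of all tested genes showed no overlap (40.7% above, 39.2% below). With library size alone in place of TMM factors the median of all genes shifted by 0.159, the share of calls that were higher went from 54.6% to 68.8%, and the median of the 30 genes turned to 0.07.

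**Figure D1:**
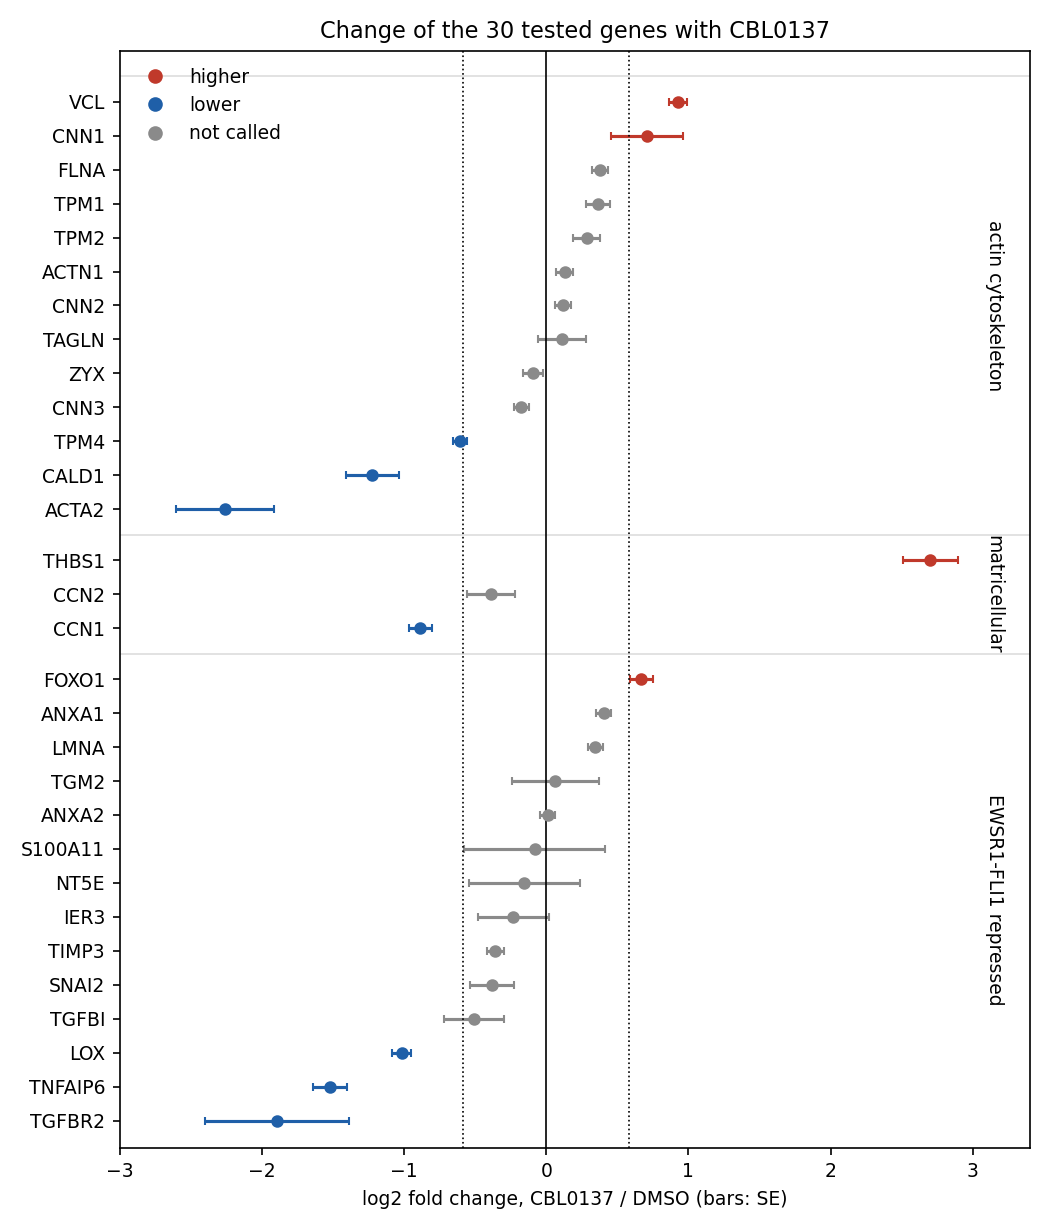
Log2 fold change of CBL0137 over DMSO (x axis) for the 30 tested genes (y axis), grouped by role, with bars for the SE from edgeR (n = 2 libraries per group). Dotted lines mark the 1.5-fold limit; 4 genes lie called to the right, up to THBS1 at 2.70, and 7 to the left, down to ACTA2 at -2.26.

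With vehicle the genes ran from among the most abundant transcripts to none detected. Levels of different genes are compared per length, as the deposited FPKM (fragments per kilobase of transcript, scaled to depth). In DMSO replicate 1 the highest were ANXA2 (213 FPKM), TPM4 (192), ANXA1 (141) and FLNA (128), each above 99% of all gene entries. Calponins CNN2 (69.8) and CNN3 (63.3) and the lamin gene LMNA (36.7) followed. At the other end CD44 and S100A6 were listed at 0, and MYL9 (0.0085) and PLAU (0.011) were close to it. With CBL0137 the same 4 genes were again the highest: in CBL0137 replicate 1 ANXA2 stood at 211, ANXA1 at 211, FLNA at 173 and TPM4 at 133 FPKM. In some genes the FPKM values of 1 group lay much farther apart than their counts. In the DMSO libraries LMNA had 36.7 and 58.8 FPKM at 5062 and 5128 reads. TAGLN had 4.54 and 1.90 FPKM there at 142 and 113 reads, and NT5E 0.160 and 0.442 FPKM at 24 and 30 reads. In the CBL0137 libraries ANXA2 had 211 and 331 FPKM at 12939 and 13436 reads. The order of genes next to each other in FPKM is therefore uncertain.

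**Figure D2:**
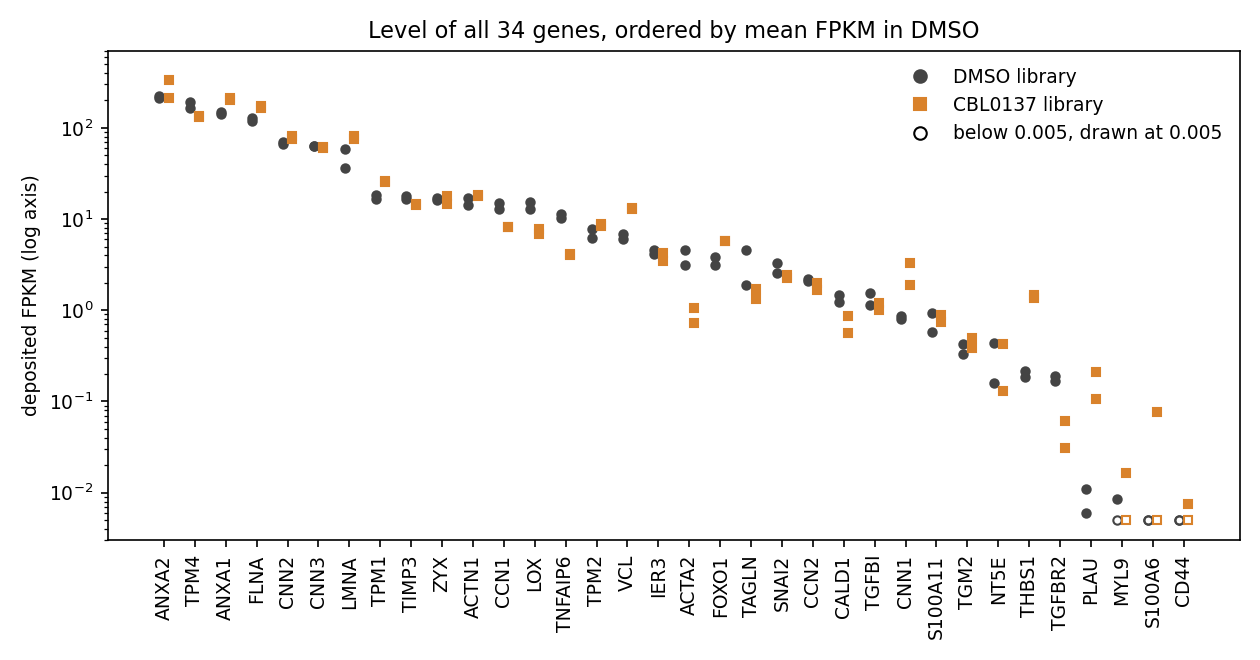
Deposited FPKM on a log axis for all 34 genes, ordered by their mean with DMSO; circles are the 2 DMSO libraries and squares the 2 CBL0137 libraries, and values below 0.005 are drawn open at 0.005. Levels run from above 200 FPKM for ANXA2 to 0 for CD44 and S100A6 with DMSO, and the libraries of a group lie close together for most genes above 1 FPKM.

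Matricellular genes, whose secreted proteins signal from the matrix to the cell and which are classical targets of YAP and SRF, went opposite ways. THBS1 encodes thrombospondin, an activator of latent TGF-beta (ENSG00000137801, GRCh37 chr15:39873280-39891667, plus strand). It stood at 2.17 and 1.67 CPM in the DMSO libraries and at 13.6 and 11.4 CPM in the CBL0137 libraries. Both treated libraries were far above both vehicle libraries, a 6.50-fold rise (log2 fold change 2.70, SE 0.19, edgeR adjusted p = 1e-15) that exceeded 98.2% of all tested genes. Reads of FSIP1, on the opposite strand, were 40 to 51 per library in both groups.

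CCN1, which encodes a secreted integrin ligand (ENSG00000142871, GRCh37 chr1:86046444-86050272, plus strand), stood at 45.04 and 51.0 CPM with DMSO and at 26.1 and 25.9 CPM with CBL0137. Both treated libraries lay below both vehicle libraries (log2 fold change -0.89, SE 0.08, edgeR adjusted p = 1.6e-12). CCN2, its close relative and the usual reporter of YAP activity, was at 7.30 and 7.36 CPM with DMSO and 6.01 and 5.19 with CBL0137. It was lower by less than the 1.5-fold limit (log2 fold change -0.39, SE 0.17, edgeR adjusted p = 0.0476) and was not called.

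The TEAD element GGAATG was looked for on both strands in RefSeq promoter windows (GRCh38.p14) of 300 bases, 250 before and 50 after a gene's start. Such windows were given for 28 of the 34 genes, 45 windows in all, as some genes have several starts. The element was in 8 of these 45 windows (17.8%) and in 14% of all 35116 windows of the same length. The CCN2 window held it 3 times, more often than any other of the 45, and the windows of THBS1, VCL, ACTA2, ACTN1 and CNN3 and 2 windows of CALD1, which fell, held it once each. The stretches of CCN2, THBS1, VCL and ACTA2 are printed 5′ to 3′ on the gene's strand, with the element in capitals, because they come from 2 genes that rose, 1 that fell and 1 that was not called.
CCN2 (chr6:131951432-131951571, minus strand, 199 to 60 bases before the start): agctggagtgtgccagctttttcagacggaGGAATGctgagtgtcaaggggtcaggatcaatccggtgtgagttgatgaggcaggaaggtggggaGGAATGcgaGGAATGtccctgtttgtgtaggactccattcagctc
THBS1 (chr15:39581003-39581068, plus strand, 76 to 11 bases before the start): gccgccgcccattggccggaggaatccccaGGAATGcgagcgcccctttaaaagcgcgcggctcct
VCL (chr10:73997915-73997980, plus strand, 201 to 136 bases before the start): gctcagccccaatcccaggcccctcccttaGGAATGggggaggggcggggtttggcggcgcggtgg
ACTA2 (chr10:88952921-88952986, minus strand, 213 to 148 bases before the start): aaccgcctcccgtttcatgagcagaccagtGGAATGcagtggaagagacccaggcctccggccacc
A match of letters is a description and not a binding site. CCN1, IER3, MYL9, SNAI2, TAGLN and TGM2 were not among the windows.

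Actin cytoskeleton genes, 14 of the 34, had 13 tested members, of which 2 rose, 3 fell and 8 stayed uncalled, with a median log2 fold change of 0.12 over the 13. That is 15.4% higher and 23.1% lower, beside 18.2% and 15.1% of all tested genes. Among the adhesion and crosslinking genes VCL rose. Its product vinculin ties integrin adhesions to actin (ENSG00000035403, GRCh37 chr10:75754951-75881121, plus strand). VCL was at 59.0 and 66.1 CPM with DMSO and at 120 and 118 CPM with CBL0137. The treated libraries were close to each other and well above the vehicle libraries (fold 1.90, log2 fold change 0.93, SE 0.06, edgeR adjusted p = 1.1e-16). AP3M1, which overlaps VCL on the opposite strand, was not called (log2 fold change -0.34, SE 0.07).

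Other adhesion genes stayed under the fold limit. FLNA, whose product filamin crosslinks actin filaments, was at 1527 and 1601 CPM with DMSO and at 2094 and 1968 with CBL0137 (log2 fold change 0.38, SE 0.05, edgeR adjusted p = 1e-07). The groups did not overlap. An unnamed gene on the opposite strand of FLNA (ENSG00000285018) had 1 read in each DMSO library and 21 and 11 with CBL0137. ACTN1, for the crosslinker alpha-actinin, was at 81.1 and 91.0 CPM with DMSO and 94.5 and 93.8 with CBL0137 (log2 fold change 0.13, SE 0.06), and ZYX, for the adhesion protein zyxin, at 51.8 and 55.7 and at 53.5 and 47.3, with overlapping groups (-0.09, SE 0.07).

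Tropomyosins, which wind along actin filaments and set how myosin and other proteins reach them, changed in their proportions. TPM4 (ENSG00000167460, GRCh37 chr19:16177831-16213812, plus strand) was at 624 and 634 CPM with DMSO and at 409 and 418 CPM with CBL0137. The libraries of each group lay within 10 CPM of each other and the groups were far apart, yet the fall was only just past the fold limit (log2 fold change -0.61, SE 0.05, edgeR adjusted p = 1.6e-13). With library size alone TPM4 was at -0.45 and with log2(FPKM + 1) at -0.41, and was not called by either. TPM1 was at 27.4 and 27.0 CPM with DMSO and 33.8 and 36.2 with CBL0137 (log2 fold change 0.36, SE 0.08, edgeR adjusted p = 2.8e-04), and TPM2 at 23.3 and 21.1 and at 28.0 and 26.0 (0.28, SE 0.09, adjusted p = 0.00824). Both were higher by less than 1.5-fold. Of the summed FPKM of TPM1, TPM2, TPM3 and TPM4, TPM4 made up 64.9% and 62.0% with DMSO and 54.1% and 53.6% with CBL0137. TPM1 made up 5.61% and 6.78% with DMSO and 10.3% in both CBL0137 libraries. In the DMSO libraries TPM4 had 192 and 167 FPKM at 11810 and 11803 reads, so the size of these shares is uncertain. An exact permutation test of 2 libraries against 2, taken as two-sided, cannot give a p below 0.333, and the shares are given as values without a test.

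Calponins, actin-binding proteins that restrain myosin, differed among themselves in level more than in response. CNN1, the smooth muscle form (ENSG00000130176, GRCh37 chr19:11649582-11661138, plus strand), was at 2.33 and 2.58 CPM with DMSO and at 4.87 and 3.16 CPM with CBL0137. The treated libraries were above the vehicle libraries but apart from each other (log2 fold change 0.71, SE 0.25, edgeR adjusted p = 0.0146). This call was lost with DESeq2 (adjusted p = 0.18), with no filter on low counts (edgeR adjusted p = 0.136), without DMSO replicate 1 (0.62, edgeR adjusted p = 0.0603) and without CBL0137 replicate 1 (0.36, edgeR adjusted p = 0.389). The widely expressed CNN2 was at 181 CPM in both DMSO libraries and at 203 and 190 with CBL0137 (0.12, SE 0.05), and CNN3 at 192 and 191 and at 168 and 171 (-0.17, SE 0.05); neither was called.

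**Figure D3:**
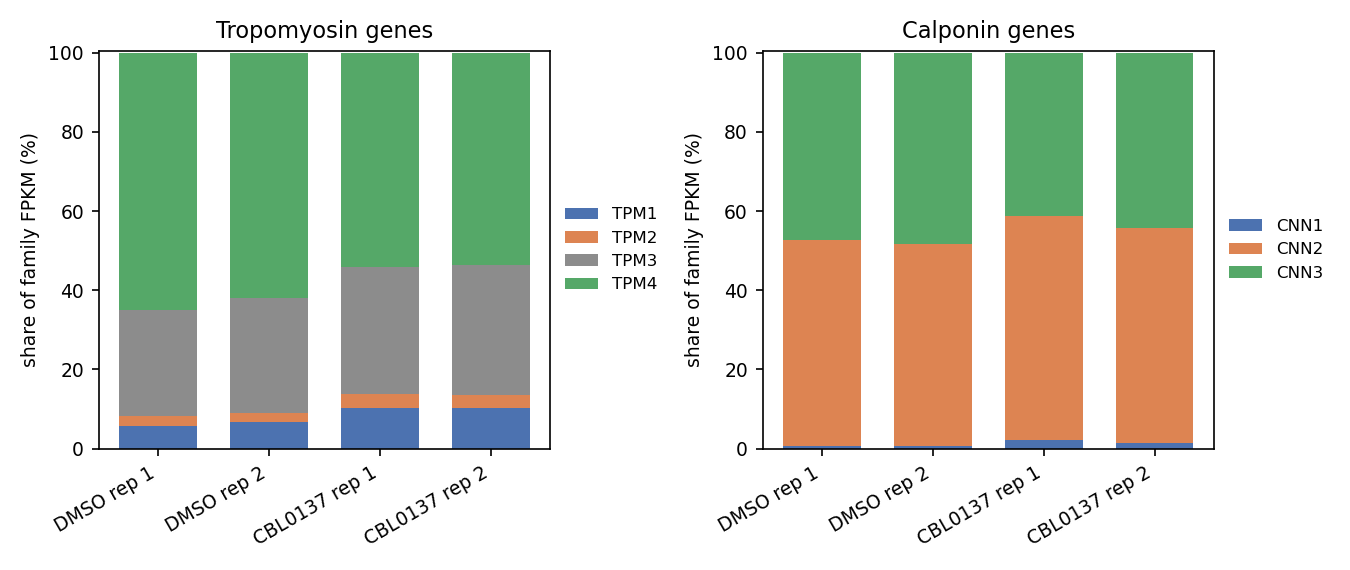
Share of the summed deposited FPKM (y axis, %) taken by each tropomyosin gene (left) and each calponin gene (right) in the 4 libraries. TPM4 takes 64.9% and 62.0% with DMSO against 54.1% and 53.6% with CBL0137, while CNN2 and CNN3 together make up nearly all calponin FPKM in every library.

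Genes of the smooth muscle contractile apparatus were low, and the 2 that changed most among the actin genes fell. ACTA2, smooth muscle actin (ENSG00000107796, GRCh37 chr10:90694831-90751096, minus strand), had 55 and 72 reads with DMSO and 13 and 18 with CBL0137, that is, 2.91 and 3.87 against 0.592 and 0.813 CPM. The groups lay far apart, a 4.79-fold fall (log2 fold change -2.26, SE 0.34, edgeR adjusted p = 3.2e-07). STAMBPL1 and FAS, which overlap ACTA2 on the opposite strand, were not called (-0.30, SE 0.24, and 0.06, SE 0.36). CALD1, for the actin- and myosin-binding protein caldesmon (ENSG00000122786, GRCh37 chr7:134429003-134655480, plus strand), was at 8.46 and 8.49 CPM with DMSO and at 3.19 and 4.06 CPM with CBL0137. Its treated libraries were both below its vehicle libraries (log2 fold change -1.22, SE 0.18, edgeR adjusted p = 2.6e-07), although with log2(FPKM + 1) the difference was -0.46 and not called.

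TAGLN, for the actin-bundling protein transgelin, was at 7.51 and 6.07 CPM with DMSO and 8.15 and 6.50 with CBL0137. The groups overlapped (log2 fold change 0.11, SE 0.17), and the sign turned with FPKM (-0.67). It overlaps PCSK7 on the opposite strand, which rose by 0.91 (SE 0.08). MYL9, a myosin regulatory light chain, had 1 and 0 reads with DMSO and 0 and 2 with CBL0137, each library under the 3 reads that a count of 0 allows (0.135 to 0.161 CPM per library, counting error only). No difference in MYL9 was detectable at this depth.

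**Figure D4:**
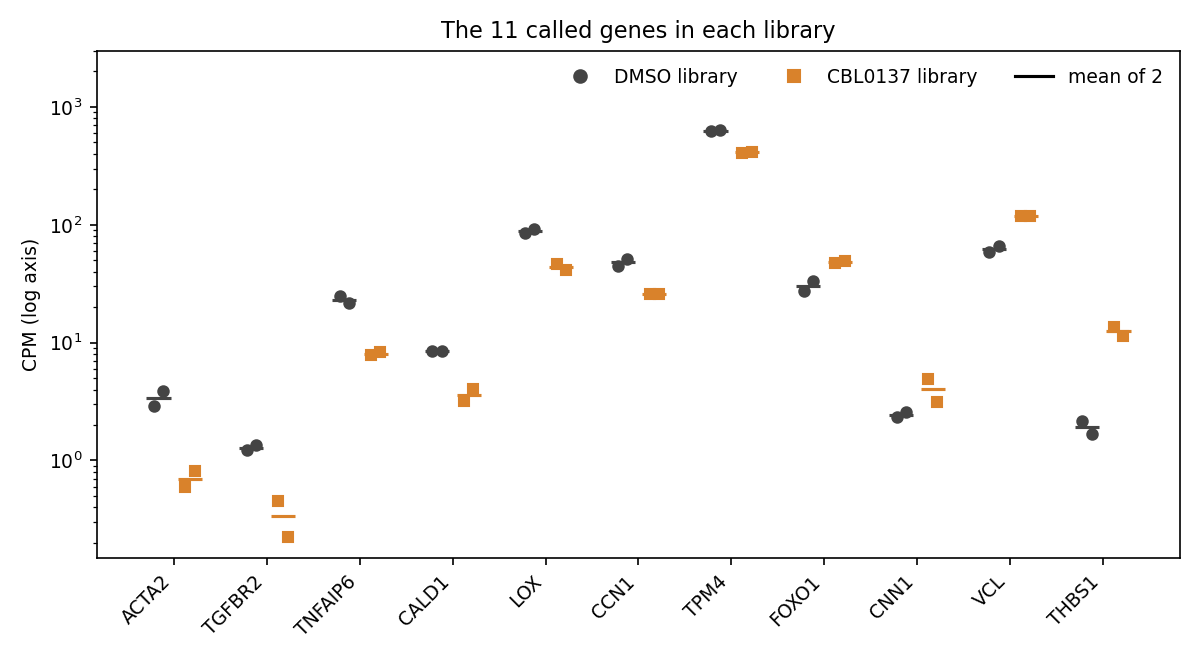
CPM on a log axis in each library for the 11 called genes, ordered by log2 fold change; circles are DMSO libraries, squares CBL0137 libraries, and lines the means of 2. The lowest pair is TGFBR2 with CBL0137 (0.455 and 0.226 CPM) and the highest TPM4 with DMSO (624 and 634 CPM).

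The CArG box was found in 4 of the 45 promoter windows (8.89%) and in 1.29% of all 35116 windows, both strands searched, and no match of 1 motif overlapped a match of another in the 45 windows. All 4 belong to actin cytoskeleton genes, 1 of which fell (TPM4) and 3 of which were not called (FLNA, CNN2 and ACTN1). They are shown with the box in capitals, as genes with the same element whose log2 fold changes ran from -0.61 to 0.38.
TPM4 (chr19:16067335-16067404, plus strand, 203 to 134 bases before the start): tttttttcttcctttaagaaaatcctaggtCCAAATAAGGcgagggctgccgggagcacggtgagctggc
FLNA (chrX:154374689-154374758, minus strand, 124 to 55 bases before the start): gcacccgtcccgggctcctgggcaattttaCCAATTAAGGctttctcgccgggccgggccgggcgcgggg
CNN2 (chr19:1026489-1026558, plus strand, 119 to 50 bases before the start): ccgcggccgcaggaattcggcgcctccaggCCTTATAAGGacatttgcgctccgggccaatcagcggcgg
ACTN1 (chr14:68977698-68977767, minus strand, 201 to 132 bases before the start): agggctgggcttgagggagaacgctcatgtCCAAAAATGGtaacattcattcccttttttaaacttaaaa
These are RefSeq windows of GRCh38.p14 as well. The AP-1 element TGANTCA, read on both strands, was in 4 windows (8.89%, 7.71% of all windows), those of ANXA2, CALD1, TGFBR2 and TNFAIP6, of which the last 3 genes fell. A tandem GGAA repeat on either strand was in 1 window, that of CNN3 (2.22%, 3.67% of all windows). The match was only TTCCTTCC on the gene's strand and lay 153 to 160 bases before the start. Whether the fusion protein binds so short a repeat was not tested. Median GC content was 68.7% in the 4 windows of the genes that rose, 55% in the 15 windows of 6 genes that fell, 71.7% in the 22 windows of genes not called and 58.7% over all windows.

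The other 17 genes are those that the fusion protein represses outside the actin apparatus. Of these, 14 were tested, 1 rose, 3 fell and 10 stayed uncalled, with a median log2 fold change of -0.19 over the 14. The shares were 7.14% higher and 21.4% lower, beside the same background of 18.2% and 15.1%. FOXO1, a forkhead transcription factor that restrains growth (ENSG00000150907, GRCh37 chr13:41129804-41240778, minus strand), was at 27.6 and 33.1 CPM with DMSO and at 47.3 and 49.2 CPM with CBL0137. Both treated libraries were higher (fold 1.59, log2 fold change 0.67, SE 0.08, edgeR adjusted p = 2.6e-09), but without DMSO replicate 1 the difference was 0.52, under the fold limit.

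TGF-beta signals through a type II receptor that TGFBR2 encodes, and repression of this gene is among the best known acts of the fusion. TGFBR2 (ENSG00000163513, GRCh37 chr3:30648093-30735634, plus strand) had 23 and 25 reads with DMSO and 10 and 5 with CBL0137, or 1.22 and 1.34 against 0.455 and 0.226 CPM. It was lower in both treated libraries (log2 fold change -1.89, SE 0.51, edgeR adjusted p = 0.00136), a call that was lost without CBL0137 replicate 2 (-1.48, edgeR adjusted p = 0.0514) and with log2(FPKM + 1). TGFBI, a matrix protein gene induced by TGF-beta, was at 4.86 and 6.23 CPM with DMSO and 3.37 and 4.43 with CBL0137 (-0.51, SE 0.21, edgeR adjusted p = 0.0344). It stayed under the fold limit with all 4 libraries and was called lower without DMSO replicate 1 or without CBL0137 replicate 2.

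Genes for enzymes and inhibitors of the matrix fell or were not called, with 1 near-silent exception. LOX, lysyl oxidase, which crosslinks collagen (ENSG00000113083, GRCh37 chr5:121398890-121414108, minus strand), was at 85.7 and 92.4 CPM with DMSO and at 46.6 and 41.5 CPM with CBL0137. The groups were well apart (log2 fold change -1.02, SE 0.07, edgeR adjusted p = 1.3e-16). TNFAIP6, for a hyaluronan-binding protein made in inflammation (ENSG00000123610, GRCh37 chr2:152214106-152236560, plus strand), was at 24.7 and 21.5 CPM with DMSO and at 7.87 and 8.26 CPM with CBL0137. That is a 2.87-fold fall seen in both treated libraries (log2 fold change -1.52, SE 0.12, edgeR adjusted p = 1.4e-14). TIMP3, a metalloproteinase inhibitor gene, was at 118 and 124 CPM with DMSO and 93.8 and 94.5 with CBL0137 (-0.36, SE 0.06), and TGM2, for a protein-crosslinking transglutaminase, at 2.54 and 1.67 and at 1.96 and 2.44 (0.06, SE 0.30); neither was called.

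PLAU, for the protease urokinase, was the exception. It had 0 reads in both DMSO libraries and 5 and 13 with CBL0137, and it did not pass the filter on low counts. Set against 3 reads over the DMSO group, its pooled level of 0.408 CPM was 5.10-fold higher with CBL0137. This leaves out the counting error of the 5 and 13 treated reads and is not a lower bound. DESeq2 called it higher (adjusted p = 0.0284), while edgeR with no filter on low counts did not (adjusted p = 0.0597). PLAU ends 77.7 kb before VCL begins on chromosome 10.

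CD44 and NT5E, genes for surface molecules of mesenchymal cells, were almost silent. CD44, the hyaluronan receptor, had 0 reads in all 4 libraries, which allows up to 0.0799 CPM over the DMSO group and 0.0680 over the CBL0137 group. NT5E, the ectonucleotidase CD73, had 24 and 30 reads with DMSO and 38 and 19 with CBL0137, with overlapping groups (log2 fold change -0.15, SE 0.39). The calcium-binding S100 genes were as low: S100A6 had reads in 1 library only (3 reads, CBL0137 replicate 2), and S100A11 had 11 and 16 reads with DMSO and 16 and 14 with CBL0137 (-0.08, SE 0.49).

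Annexins and the lamin gene were the most abundant of this group. ANXA1 was at 305 and 314 CPM with DMSO and at 418 and 401 CPM with CBL0137 (log2 fold change 0.40, SE 0.05, edgeR adjusted p = 8.1e-09). LMNA, for lamins A and C of the nuclear envelope, was at 268 and 275 CPM with DMSO and at 358 and 332 with CBL0137 (0.35, SE 0.05, edgeR adjusted p = 3.7e-07). In neither gene did the groups overlap, and in both the difference in counts stayed under 1.5-fold. With log2(FPKM + 1), where the DMSO libraries of LMNA lay far apart, LMNA was at 0.75 and was called higher (limma adjusted p = 0.0437). ANXA2 was at 605 and 582 and at 589 and 607 CPM, with overlapping groups (0.01, SE 0.05). The early response gene IER3 (-0.23, SE 0.25) and SNAI2, for the mesenchymal transcription factor Slug (-0.38, SE 0.15, edgeR adjusted p = 0.0288), were not called either.

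Related genes outside the 34 were read from 5 lists. The share called was 22.2% of the tested SRF and Hippo regulators, 16.7% of TGF-beta signalling genes, 26.5% of other actin genes, 58.8% of other YAP targets and 56% of mesenchymal genes, where 33.4% of all tested genes were called (18.2% higher, 15.1% lower). Among 28 genes of SRF and Hippo regulators, 27 were tested, of which edgeR called 6 lower and 0 higher. DESeq2 called 0 higher, limma on FPKM 1, and edgeR with library size alone 2. With no fold limit 7 were higher and 11 lower at an edgeR adjusted p under 0.05. Of all tested genes 61.7% passed that limit, in either direction. With library size alone 3 were called lower. YAP1 fell from 148 ± 6.98 to 81.1 ± 3.02 CPM (SD, n = 2; log2 fold change -0.87, SE 0.06, edgeR adjusted p = 9.6e-17), and its TEAD partner gene TEAD4 from 36.7 ± 0.222 to 19.98 ± 2.26 CPM (-0.88, SE 0.09).
TEAD2 fell by 0.60 (SE 0.06), a call lost with library size alone (-0.44) and without CBL0137 replicate 1 (-0.56). WWTR1 (0.09, SE 0.05), TEAD1 (0.07, SE 0.06), TEAD3 (-0.16, SE 0.09), SRF (-0.10, SE 0.07, and 0.06 with library size alone) and MRTFB (0.08, SE 0.06) were not called. MRTFA, at 0.53 (SE 0.07), missed the fold limit but passed it with library size alone (0.69). RHOB, a small GTPase gene, had the lowest value of this list, falling from 124 ± 6.65 to 39.3 ± 2.24 CPM (-1.65, SE 0.07).

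Of 20 other YAP target genes 17 were tested, 4 rose and 6 fell (median 0.02). IGFBP3, whose product carries insulin-like growth factors in tissue fluid, rose by 3.48 (SE 0.44) from a low level of 0.267 ± 0.0784 CPM, and DOCK5 by 1.83 (SE 0.47). DOCK5 had 17 and 3 reads with DMSO, and its difference was 3.50 without DMSO replicate 1 and 1.06 without DMSO replicate 2. The DOCK5 call was lost with no filter on low counts (edgeR adjusted p = 0.0856), and the value was -0.01 with log2(FPKM + 1) and no filter. The tissue factor gene F3 fell by 1.27 (SE 0.17) and RBMS3 by 1.05 (SE 0.16).

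Of 34 other actin genes all were tested, 4 rose (8 with library size alone) and 5 fell (median -0.09, and 0.01 for all tested genes). MYH10, a nonmuscle myosin heavy chain gene, rose from 181 ± 8.53 to 336 ± 9.73 CPM (SD, n = 2; log2 fold change 0.90, SE 0.05), and LMOD1 by 1.38 (SE 0.60) at under 1 CPM, a call lost with DESeq2 (adjusted p = 0.31), under the replicate block (edgeR adjusted p = 0.0572) and without any 1 of the 4 libraries. FHL2, for a LIM-domain partner of actin and SRF, fell by 2.60 (SE 0.23) and CSRP1, for another LIM-domain protein, by 1.55 (SE 0.06).

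Of 18 genes of TGF-beta signalling 3 rose and 0 fell by edgeR (0 also by DESeq2 and limma), with a median of -0.28. With no fold limit 9 were lower and 5 higher at an edgeR adjusted p under 0.05. Of all tested genes 61.7% passed so, in either direction. LTBP1, for a protein that binds latent TGF-beta, rose by 0.90 (SE 0.06) and ID1, for an inhibitor of helix-loop-helix factors, by 0.72 (SE 0.10), the latter not called with DESeq2 (adjusted p = 0.0809) or without DMSO replicate 1 (0.40). Of 27 further mesenchymal genes 25 were tested, 5 rose and 9 fell (median -0.02). The collagen genes COL1A1 (1.89, SE 0.06) and COL6A1 (1.47, SE 0.07) rose, and the membrane protein gene EMP1 (-1.64, SE 0.32) and the transcription factor gene TWIST1 (-1.21, SE 0.06) fell.

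**Figure D5:**
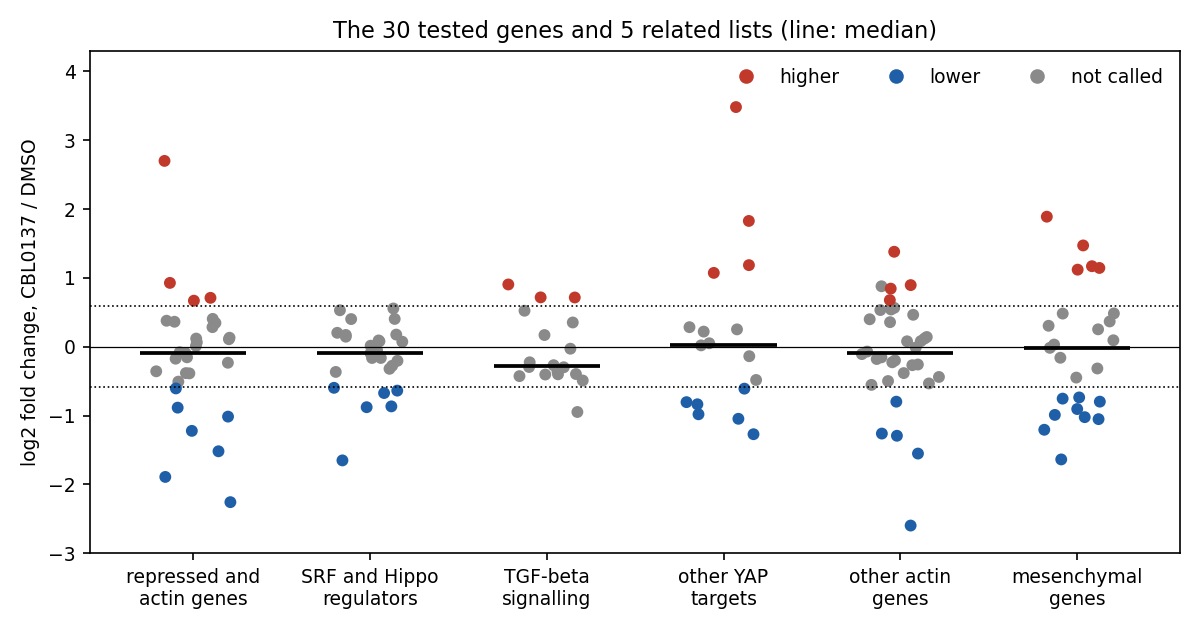
Log2 fold change of CBL0137 over DMSO (y axis) for each tested gene of the 34 and of 5 related lists (x axis; points spread sideways for legibility), coloured by call, with a line at each median. Medians lie between -0.28 for TGF-beta signalling and 0.02 for YAP targets, and every list but the regulators and TGF-beta signalling holds calls in both directions.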

How the data were processed

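RNA-seq was analysed from 2 libraries of SKNMC cells with CBL0137 (1 µM, 24 h) and 2 with DMSO; groups and replicate numbers came from the sample titles. Per the submitters' processing notes and design text, the authors trimmed reads with Trim Galore, aligned them to hg19 with HISAT2 and deposited raw read counts per gene from HTSeq 0.11.1. They also deposited FPKM values computed from reads, gene length and depth, per the design text. The FPKM are no rescaling of the counts, as 5103 genes without a read had FPKM above 0, so they served for levels between genes and as an alternative. The authors' own comparison used DESeq2 1.26.0, per the design text, which also gives the 1.5-fold and 0.05 limits. The notes also name mm10, with no stated use. The sources used here do not give the annotation release or the strand setting of library and counting, so reads of overlapping genes on opposite strands cannot be told apart with certainty; 25 of the 34 genes overlap such a gene.

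The table held 60617 gene entries; 6 entries that name no gene stayed out of tests. Of all reads listed, 8.53% to 10.3% fell in no annotated gene, 8.75% to 9.34% were ambiguous and 6.91% to 7.13% did not align uniquely. Symbols matched 58524 entries through GENCODE 44 on GRCh37, the build of hg19. Replicates differed by more than sampling noise (chi-square per degree of freedom 2.95 and 2.68). edgeR 4.0.16 in R 4.3.3 (filterByExpr, TMM factors 0.943 to 1.06, quasi-likelihood F test) tested 17374 genes with Benjamini-Hochberg adjustment over all of them; SE is the absolute log2 fold change over the square root of F. On simulated counts of the same 17374 genes, with the dispersion trend fitted here, edgeR recovered 99.0% of 100 genes changed 2-fold. The changed genes were drawn only from genes with more reads, so this share does not cover genes with few reads, such as TGFBR2, NT5E and S100A11. They were also few and evenly split between up and down, while 33.4% of all tested genes were called in the data. The share therefore does not cover errors of scaling. Alternatives were DESeq2 1.42.0, other scalings, filters and fold limits, limma 3.58.1 on log2(FPKM + 1) or log2(FPKM + 0.1), the replicate number as a block, and each library left out.

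The 34 genes, the 5 related lists and the marker lists were chosen with earlier results of these data known, and the division of the 34 by role was made here. All 34 were to be named, with, per related list, the 2 called genes highest and the 2 lowest in log2 fold change and the SRF, MRTF, YAP and TEAD genes; other genes named were chosen after their values were seen. PECAM1, an endothelial marker, matched no entry and was not analysed here.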

Additional observations from a re-analysis of the deposited data

How the results depend on the processing

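Of the 34 genes, 4 were called higher and 7 lower. These counts were 1 and 5 with a fold above 2, and 9 and 12 with no fold limit. With log2(FPKM + 1) they were 5 and 4, with log2(FPKM + 0.1) 5 and 4, and with log2(FPKM + 1) without filter 2 and 3. The stricter filter on counts gave 4 and 4, as ACTA2 and TGFBR2 were then not tested and TPM4 was at -0.56. Leaving out 1 library in turn gave 3 to 5 higher and 7 to 8 lower. Over all genes 3166 were called higher and 2632 lower. These were 1988 and 1218 with a fold above 2, 5347 and 5375 with no fold limit, 1215 and 1057 with log2(FPKM + 1) without filter, and 2125 and 1571 with log2(FPKM + 1).

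The calls of THBS1, VCL, LOX, TNFAIP6 and CCN1 held in every alternative other than the 2-fold limit, where VCL and CCN1 were lost. Of the 30 tested genes in their alternatives, 381 values kept direction and call, 24 lost a call, 14 gained one and 21 turned sign. Among the 30, no gene that turned sign was called with all 4 libraries or under the alternative that turned it. NT5E was at 0.0044 with library size alone and from -0.74 to 0.26 with 1 library left out, and TGM2 from -0.22 to 0.38. ANXA2 was at -0.0035 with DESeq2, -0.0108 without the filter and from -0.0317 to 0.0304 with 1 library left out. S100A11 was at 0.0763 with library size alone, 0.0502 with log2(FPKM + 1), with or without filter, 0.12 with log2(FPKM + 0.1) and from -0.35 to 0.21 with 1 library left out. ZYX was at 0.0668 and SRF at 0.0596 with library size alone, and SRF from -0.23 to 0.0164 with 1 library left out. TAGLN was at -0.67 with log2(FPKM + 1), with or without filter, -0.92 with log2(FPKM + 0.1) and from -0.0647 to 0.26 with 1 library left out. DOCK5 was at -0.0130 with log2(FPKM + 1) without filter. With 1 library left out MRTFB ran from -0.0562 to 0.19, TEAD1 from -0.0262 to 0.14 and FLI1 from -0.0103 to 0.0487. The cause was not tested.

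The replicate numbers are not stated to mark a shared culture or day, and the deviations of same-numbered libraries correlated at 0.0196 across genes. With the number as a replicate block 4 of the 34 genes were called higher and 7 lower, the same 11 genes, and 3129 and 2612 over all genes. Depth limits CD44, MYL9, PLAU and S100A6, with 0 to 18 reads per group, and the SE of TGFBR2, NT5E and S100A11, with 5 to 38 reads per library.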
